A study of Mus musculus with 47 samples.

Results

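The genes described here are 7 subunit genes of the GABA-A receptor, Gabra2, Gabra3, Gabra4, Gabra5, Gabrb1, Gabrb2 and Gabrd. They were chosen by name with earlier results of these data known, so their counts below are descriptions of these 7 genes, and all 7 were found by symbol and Ensembl identifier among the 55416 genes of each count table. Every member had counts in every library, with expected counts between 164 and 3964, so all 7 passed the filter on low counts in both sexes. Their levels were followed in brain RNA from 3xTg mice, a model of Alzheimer's disease that is homozygous for the alleles APPSwe, tauP301L and PS1M146V. Male and female mice entered the study at 6 months of age and ate 1 of 4 amino acid-defined diets for 9 months, to the age of 15 months. The diets were Control, IleR (reduced in isoleucine), LeuR (reduced in leucine) and ValR (reduced in valine). The 14 male libraries were 4 from Control-fed, 3 from IleR-fed, 3 from LeuR-fed and 4 from ValR-fed mice, and the 23 from females were 6, 5, 6 and 6 in the same order. These are all the columns of the count tables used here, and a further 10 labelled male libraries were not analysed here. The labels name polyA enrichment as well as a total RNA protocol, so how the RNA was selected is not settled. All groups carried the same alleles and were assigned by diet and sex, and each library is named below by its group and its number in the labels.

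The GABA-A receptor is the chloride channel through which GABA, the main inhibitory transmitter of the adult brain, acts fast on neurons. Each channel is a ring of subunits from several families, in which alpha and beta subunits together form the GABA binding sites. A gamma subunit usually completes receptors at synapses, and the delta subunit takes its place in many receptors outside synapses that carry tonic inhibition. The subunits are unevenly spread over the brain. The alpha4 subunit (Gabra4) is known mainly from thalamus, striatum, cortex and dentate gyrus, where it pairs with delta, the product of Gabrd. In cerebellar granule cells delta pairs with alpha6 instead. The alpha5 subunit (Gabra5) is best known from the hippocampus, alpha2 (Gabra2) and alpha3 (Gabra3) serve synapses in many forebrain and brainstem neurons, and beta2 (Gabrb2) is a common beta subunit of synaptic receptors.

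In GRCm38 coordinates with GENCODE M21 gene models, Gabra2 lies on the minus strand at chr5:70957597-71095849, Gabra4 on the minus strand at chr5:71569749-71658308 and Gabrb1 on the plus strand at chr5:71658113-72149037. Gabra4 and Gabrb1 thus start head to head, and the gene models overlap by 196 bp, of which 46 bp are exonic in both. Gabra5 lies on the minus strand at chr7:57407672-57510059. Gabra3 is at chrX:72432681-72656848 (minus), Gabrb2 at chr11:42419757-42629028 (plus) and Gabrd at chr4:155384980-155398112 (minus). The strand setting of the counting is not given in the sources used here, so reads from the short exonic overlap of Gabra4 and Gabrb1 may have been shared between the genes.

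The start regions of Gabra2, Gabra3, Gabra4 and Gabrb1, which fell together in ValR males, and of Gabrb2, which fell in LeuR males, are shown because they let the members be compared at the sequence level. Each is the RefSeq window of GRCm38.p6 from 250 bases before to 50 bases after the annotated start, 5′ to 3′ on the gene's own strand, and for Gabra3, Gabrb1 and Gabrb2 the first of several windows. Capitals mark matches on either strand to the GC box (GGGCGG), the EGR site (GCGNGGGCG) or the TATA box (TATAAA).
Gabra2 is at chr5:71095800-71096099 (minus), Gabra3 at chrX:72656758-72657057 (minus), Gabra4 at chr5:71658259-71658558 (minus), Gabrb1 at chr5:71657671-71657970 (plus) and Gabrb2 at chr11:42420190-42420489 (plus).
Gabra2: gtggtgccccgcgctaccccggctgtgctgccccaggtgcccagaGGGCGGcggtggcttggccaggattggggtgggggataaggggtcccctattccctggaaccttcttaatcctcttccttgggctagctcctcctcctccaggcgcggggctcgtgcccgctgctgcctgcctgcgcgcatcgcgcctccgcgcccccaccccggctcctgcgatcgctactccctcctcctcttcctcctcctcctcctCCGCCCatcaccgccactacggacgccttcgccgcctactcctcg
Gabra3: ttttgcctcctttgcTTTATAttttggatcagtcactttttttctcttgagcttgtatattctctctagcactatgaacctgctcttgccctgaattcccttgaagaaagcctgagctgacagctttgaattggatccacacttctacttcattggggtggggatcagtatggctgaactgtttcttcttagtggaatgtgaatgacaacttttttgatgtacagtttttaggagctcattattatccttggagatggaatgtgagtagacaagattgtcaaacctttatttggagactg
Gabra4: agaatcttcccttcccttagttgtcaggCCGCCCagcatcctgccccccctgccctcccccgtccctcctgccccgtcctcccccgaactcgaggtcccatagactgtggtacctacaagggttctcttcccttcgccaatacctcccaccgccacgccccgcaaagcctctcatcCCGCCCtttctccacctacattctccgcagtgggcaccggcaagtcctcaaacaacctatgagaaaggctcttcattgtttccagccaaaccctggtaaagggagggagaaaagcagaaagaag
Gabrb1: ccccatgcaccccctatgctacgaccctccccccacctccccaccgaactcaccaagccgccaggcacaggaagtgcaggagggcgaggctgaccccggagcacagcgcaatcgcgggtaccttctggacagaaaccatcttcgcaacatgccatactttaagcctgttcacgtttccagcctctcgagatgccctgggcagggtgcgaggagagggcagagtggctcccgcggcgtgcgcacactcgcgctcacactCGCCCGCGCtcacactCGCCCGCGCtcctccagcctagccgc
Gabrb2: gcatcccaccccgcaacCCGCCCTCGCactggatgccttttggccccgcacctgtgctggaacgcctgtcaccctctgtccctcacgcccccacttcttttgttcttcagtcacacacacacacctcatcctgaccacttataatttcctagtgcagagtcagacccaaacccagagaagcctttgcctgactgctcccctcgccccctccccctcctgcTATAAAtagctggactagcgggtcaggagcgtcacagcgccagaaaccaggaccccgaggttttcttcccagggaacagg

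Gabra2 and Gabra4 each held 2 GC boxes and neither of the other motifs. The first window of Gabra3 held 1 TATA box and 0 GC boxes. The first window of Gabrb1 held 2 EGR sites. The first window of Gabrb2 held 1 TATA box, 1 GC box and 1 EGR site, and the last 2 overlapped each other. The cyclic AMP response element TGACGTCA was found in none of these windows. Among 32851 RefSeq windows of the same length, 35.7% held a GC box, 13.6% a TATA box, 5.55% an EGR site and 1.79% a cyclic AMP response element. GC content was 70% for Gabra2, 66% for Gabrb1, 59% for Gabrb2, 58.7% for Gabra4 and 39.3% for Gabra3, and the median of all windows was 52.7%, so the windows of genes that fell in ValR males lay on both sides of it. The RefSeq starts of Gabra4 (position 71658308) and Gabrb1 (position 71657921) were 387 bp apart. A motif match is a description of the letters and was not tied to any measured binding.

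Total expected counts ranged from 12682663 to 25722301 in male libraries and from 10672583 to 21370968 in female libraries. Libraries of 1 group differed by more than sampling noise in all 73 within-group pairs (lowest chi-square per degree of freedom 9.09), so none was a copy of another, although libraries made from 1 animal could not be told apart this way. Levels are given as CPM, counts scaled to a common library size with TMM normalization factors. The study's text names whole brain in one place and the left hemisphere in another as the tissue taken. Liver genes, checked because a protocol text in the labels names liver, summed to at most 3.69 CPM in males and 9.90 CPM in females, whereas 8 pan-neuronal genes summed to at least 4358 CPM in every library.

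Markers of brain regions differed strongly between libraries, and in males they differed with diet. The 11 cerebellar markers summed to 41.6–113 CPM in Control males, 1355–3565 CPM in IleR, 253–1404 CPM in LeuR and 1438–4608 CPM in ValR. The 13 brainstem and spinal cord markers summed to 0.825–10.1 CPM in Control males, with Hoxa3, Hoxa5, Hoxb5 and Hoxc4 among the markers at 0 in all 4, and to 71.7–267, 7.27–657 and 121–706 CPM in IleR, LeuR and ValR. The 10 forebrain markers ran the other way, with 842–2087 CPM in Control males and 87.9–211, 70.8–426 and 74.6–88.9 CPM in IleR, LeuR and ValR. Against Control, 10, 9 and 10 of the 11 cerebellar markers rose in IleR, LeuR and ValR males, 6, 10 and 12 of the 13 brainstem markers rose, and 10, 7 and 10 of the 10 forebrain markers fell. Interneuron markers (9 genes) also moved, with 5, 3 and 7 that fell and 2, 0 and 2 that rose in IleR, LeuR and ValR males, as did striatal markers (4, 0 and 5 of 8 fell) and microglial markers (2, 0 and 4 of 7 fell). Of 7 astrocyte markers 2, 1 and 2 rose and 1, 1 and 1 fell, and of 6 hippocampal markers 1, 0 and 1 rose and 0, 0 and 2 fell. Single genes of the olfactory bulb, thalamus and pan-neuronal lists were called too. The striatal list summed to 166–1940 CPM in Control males and 182–300 CPM in restricted males. LeuR library 21 was the only restricted male library with a low cerebellar level. In females, 8 libraries had a high cerebellar level, 2 of each diet (Control 29 and 30, IleR 40 and 41, LeuR 45 and 48, ValR 31 and 36). A hindbrain score, the mean log2 CPM of the cerebellar and brainstem lists minus that of the forebrain list, was −7.98 to −5.50 in Control males and −3.43 or higher in every restricted male, so that diet and this score cannot be told apart in males.

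Across the whole set, Gabra4 and Gabrd varied most in males. Over the 14 male libraries the highest CPM was 12.8 times the lowest for Gabrd, 9.23 times for Gabra4, 5.55 times for Gabra5 and only 2.29 times for Gabrb1. The SD of log2 CPM was smaller than that of Gabrd in 97.0% of 13996 expressed genes (log2 CPM averaging 1 or more), and smaller than that of Gabra4 in 95.5%. Over the 23 female libraries Gabra5 had the widest range, 8.67 times, followed by Gabra4 with 6.01 times, and Gabrb1 again had the narrowest, 2.34 times.

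**Figure D1:**
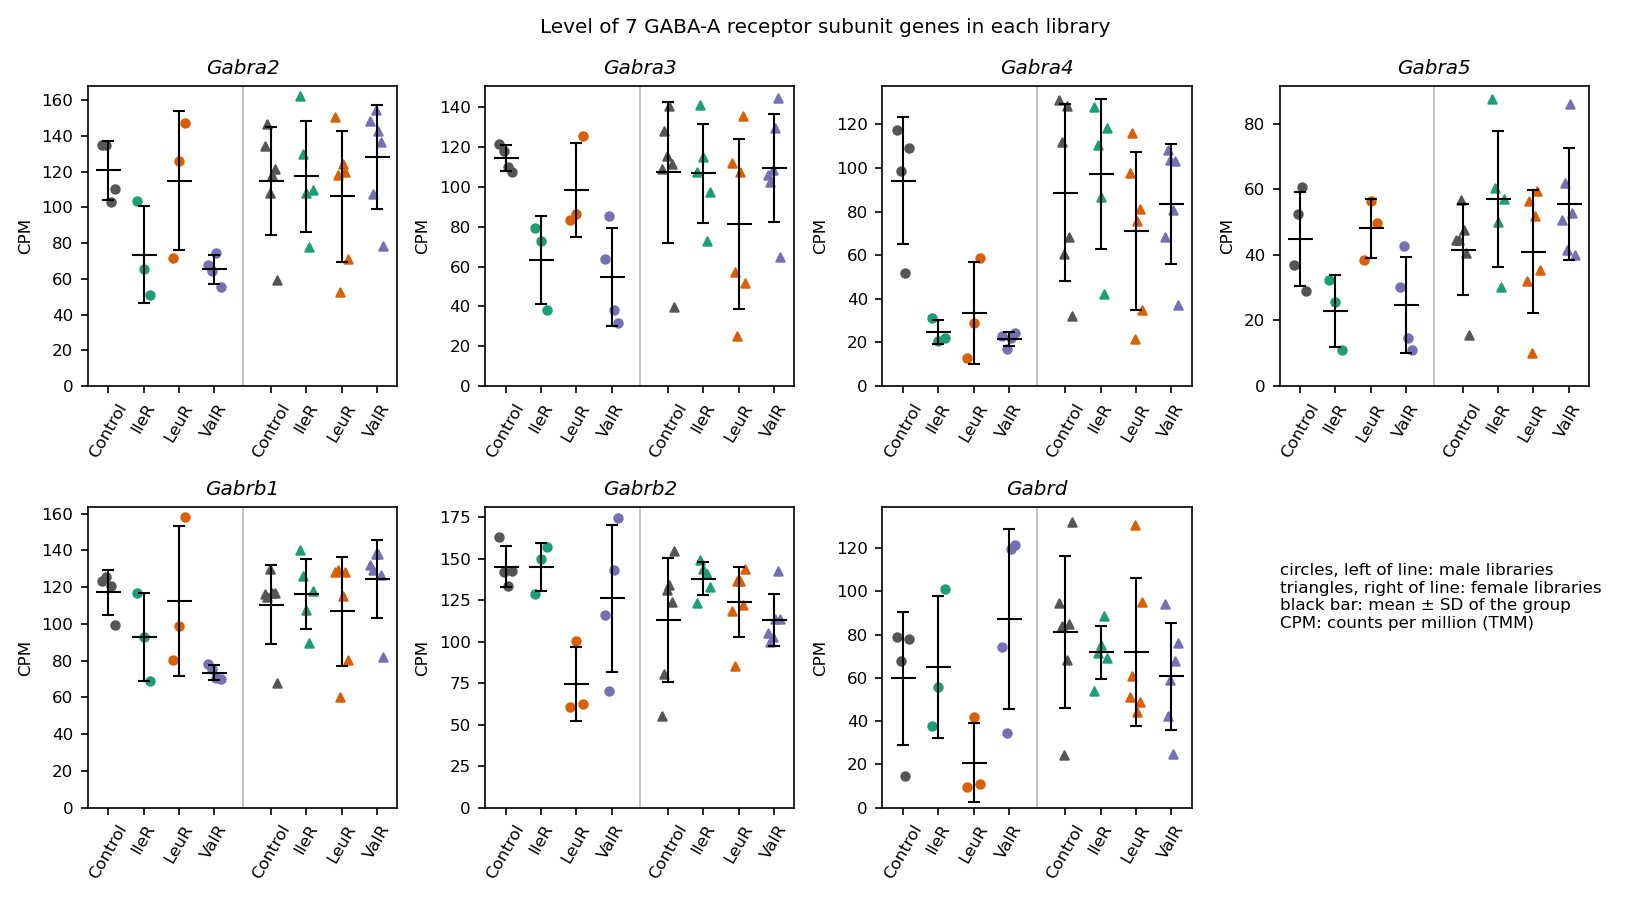
CPM of each of the 7 subunit genes (y axis, linear from 0) in every library, with male libraries as circles left of the grey line and female libraries as triangles right of it; black bars are the group mean ± SD. Gabra4 lies between 12.7 and 31.1 CPM in 9 of the 10 restricted male libraries, with LeuR 21 at 58.8, against 52.0–117 CPM in Control males, and the female groups overlap for every gene.

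Per kilobase of exon, the alpha3 gene led in Control males. Gabra3 stood at 29.1 ± 1.66 CPM per kb (SD, n = 4), above Gabrb2 at 22.8 ± 1.96, and their ranges did not overlap. Gabrd (20.8 ± 10.6), Gabra2 (15.8 ± 2.16), Gabra4 (15.5 ± 4.80) and Gabra5 (15.0 ± 4.83) followed, and neighbours in that order overlapped. Gabrb1 was the lowest at 8.46 ± 0.868 CPM per kb, clear of Gabra5. The beta1 gene was also the lowest of the 7 in all 4 female groups, with 7.71–8.99 CPM per kb.

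The lowest place changed in restricted males. Gabra4 took it in IleR (4.06 ± 0.918 CPM per kb, n = 3), LeuR (5.49 ± 3.85, n = 3) and ValR (3.54 ± 0.534, n = 4), although only in ValR was its range clear of the next gene, Gabrb1. Gabrd stood highest in ValR males at 30.4 ± 14.5 CPM per kb, where its range overlapped that of Gabrb2. In LeuR males Gabrd was second lowest at 7.25 ± 6.35 CPM per kb. These places rest on the exon union of each gene. With the longest transcript as length, Gabrb2 (36.4 CPM per kb) passed Gabra3 (31.2 CPM per kb) in Control males, Gabrd (7.70) was below Gabra4 (8.14) in LeuR males, and Gabra4 (5.24) came close to Gabrb1 (5.35) in ValR males, so those places depend on the length used.

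Summed over the 7 genes, the level was 128 ± 16.3 CPM per kb in Control males (105–142), 89.7 ± 1.65 in IleR, 88.9 ± 21.3 in LeuR and 89.9 ± 10.3 in ValR. The IleR (88.6–91.6), LeuR (64.3–103) and ValR (75.7–97.7) libraries all lay below the lowest Control library. In females the sum was 125 ± 14.7 CPM per kb in Control, 133 ± 17.6 in IleR, 112 ± 13.7 in LeuR and 125 ± 16.3 in ValR, with overlapping ranges. No test was made of the sums or of the shares that follow.

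As a share of that sum, Gabra4 made up 11.9% ± 2.73 (SD) in Control males (8.12–14.2%), against 4.52% ± 0.933 in IleR, 5.80% ± 3.22 in LeuR and 3.93% ± 0.291 in ValR. IleR and ValR shares did not overlap the Control shares, whereas LeuR shares (3.25–9.41%) did. The mean share of Gabrd lay on opposite sides of Control, with 15.7% ± 7.48 in Control males, 7.84% ± 5.93 in LeuR and 32.7% ± 13.1 in ValR, and the ValR shares (15.8–43.1%) overlapped the Control shares (4.76–21.5%). Gabrb2 took 18.0% ± 1.46 in Control, 25.5% ± 2.99 in IleR (22.1–27.8%, above every Control library), 13.4% ± 3.37 in LeuR (9.57–15.8%, below every Control library) and 21.6% ± 5.64 in ValR. Within the 4 alpha genes alone, Gabra4 made up 20.4% ± 6.08 in Control males and 11.5% ± 3.48, 8.21% ± 3.98 and 11.5% ± 4.87 in IleR, LeuR and ValR. Within the pair of beta genes, Gabrb2 held 72.9% ± 2.45 in Control males and 59.1% ± 11.6 in LeuR, and the LeuR range (46.2–68.8%) was below the Control range (70.6–75.8%). In females the share of Gabra4 was between 10.1% and 11.8% and that of Gabrd between 17.3% and 23.7% in the 4 diet means.

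**Figure D2:**
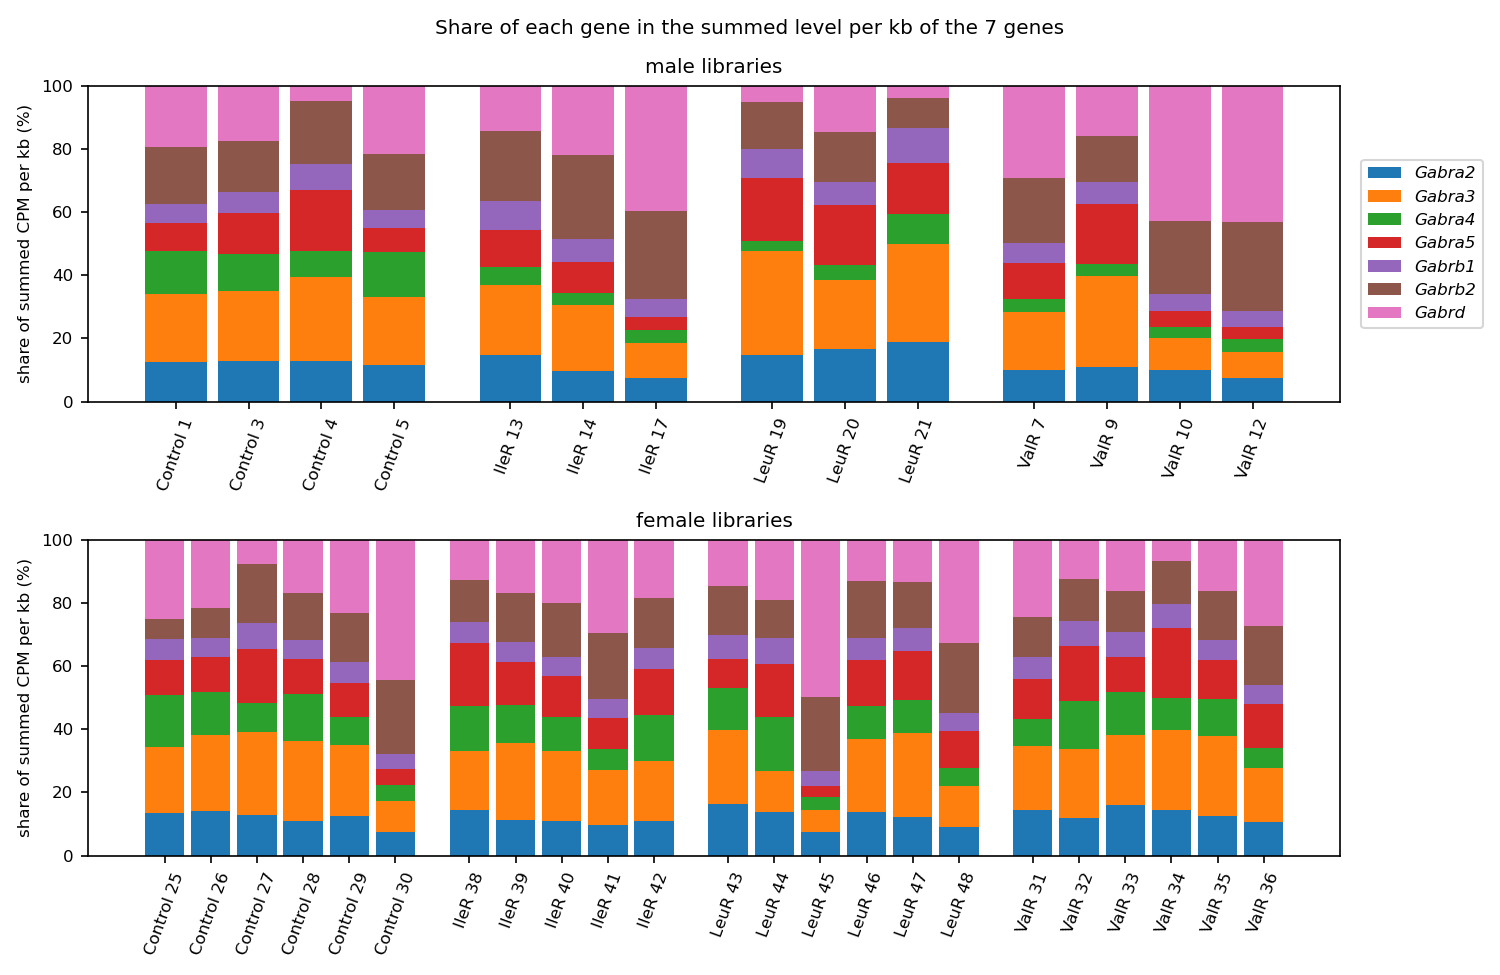
Share of each subunit gene in the summed CPM per kb of the 7 genes (y axis, percent, from 0 to 100), one stacked bar per library, males above and females below. The Gabra4 band takes 8.12–14.2% in the Control males and 3.67–4.26% in the ValR males, and the Gabrd band is widest in female LeuR 45, at 49.7%.

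Restricted diets were set against Control to ask whether a reduction of 1 dietary branched-chain amino acid changed the level of each subunit. Each was tested with edgeR's quasi-likelihood test on rounded expected counts, over 22197 genes in males and 20344 in females, with Benjamini-Hochberg adjustment and a threshold of 0.05. The 3 comparisons of a sex share the same Control libraries and are not independent of each other. Because the RNA is from whole tissue, fewer cells of a type and less RNA per cell cannot be told apart. The labels give each library only a number and the study counts its replicates as animals, so p-values measure the spread between these mice, dissection and library preparation included.

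ValR males had the most members that fell. Of the 7 genes, 4 fell (Gabra2, Gabra3, Gabra4 and Gabrb1) and 0 rose, against 12.4% of all genes tested that fell and 11.1% that rose. The median log2 fold change of the 7 genes was −0.88, beside 0.03 over all genes tested. All 4 genes that fell had ValR libraries below the lowest Control library.

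Gabra4 read 117, 98.4, 52.0 and 109 CPM in male Control libraries 1, 3, 4 and 5, and 23.0, 16.9, 21.9 and 24.4 CPM in ValR libraries 7, 9, 10 and 12. Control 4 was the low Control library, and even it was above every ValR library. Its log2 fold change was −2.15 ± 0.38 (SE), a level 0.226 times that of Control, with an adjusted p of 0.00134 by edgeR.

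Gabra3 read 122, 118, 110.2 and 108 CPM in the Control males and 63.7, 85.3, 38.0 and 31.8 CPM in the ValR males, in the same library order. The ValR libraries spread over a wider range than the Control libraries, and ValR 9 was the highest of them. The log2 fold change was −1.08 ± 0.29 (edgeR adjusted p = 0.0161), and without ValR 10 the adjusted p was 0.0537.

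Gabra2 read 135, 135, 103 and 110.4 CPM in Control males and 67.7, 64.2, 74.5 and 55.3 CPM in ValR males, with a log2 fold change of −0.90 ± 0.23 (edgeR adjusted p = 0.0133). Gabrb1, which encodes beta1, read 123, 125, 121 and 99.3 CPM in Control males and 78.3, 75.4, 70.3 and 69.8 CPM in ValR males. The ValR libraries of both genes lay close together and clear of the Control libraries. For Gabrb1 the log2 fold change was −0.69 ± 0.19 (edgeR adjusted p = 0.0209), which became 0.0511 without Control 1, 0.0544 without Control 3, 0.0548 without ValR 10 and 0.0508 without ValR 12.

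Gabra5, Gabrb2 and Gabrd did not pass the test in ValR males. Gabra5 read 36.9, 52.4, 60.6 and 29.0 CPM in Control and 30.2, 42.7, 14.6 and 11.0 CPM in ValR (log2 difference −0.88 ± 0.41, edgeR adjusted p = 0.143), and it passed without ValR 9 (−1.28, adjusted p = 0.0372). Gabrb2 read 163, 142, 133 and 143 CPM in Control and 116, 70.1, 143 and 175 CPM in ValR (−0.22 ± 0.23, adjusted p = 0.550). Gabrd read 78.7, 68.0, 14.4 and 77.9 CPM in Control and 74.2, 34.3, 119.8 and 121 CPM in ValR (0.53 ± 0.58, adjusted p = 0.566). For all 3 genes the ranges overlapped. DESeq2 and limma voom each called the same 4 members as edgeR in ValR males, and 5942 and 5169 of all 22197 genes (5212 by edgeR).

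In IleR males Gabra4 was the 1 member that fell. Of the 7 genes, 1 fell and 0 rose, against 8.68% of all genes that fell and 6.63% that rose. The median log2 fold change of the members was −0.73, beside 0.04 over all genes. Gabra4 read 31.1, 20.8 and 22.2 CPM in IleR libraries 13, 14 and 17, below all 4 Control libraries. Its log2 fold change was −1.94 ± 0.42, a level 0.260 times that of Control (edgeR adjusted p = 0.00755).

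Gabra3 in IleR males read 79.3, 72.9 and 38.1 CPM, also below every Control library, with a log2 difference of −0.86 ± 0.32 that did not pass the test (edgeR adjusted p = 0.0844). Gabra2 read 104, 65.8 and 51.1 CPM (−0.73 ± 0.25, adjusted p = 0.0708), and IleR 13 reached into the Control range. Leaving out IleR 13 or LeuR 19 brought Gabra2 past the threshold (adjusted p 0.0167 and 0.0303), and leaving out ValR 9 did so for Gabra3 (0.0480). DESeq2 called both beside Gabra4, and 4366 of all 22197 genes, where edgeR called 3398. Gabra5 (32.4, 25.5 and 10.9 CPM) had a log2 difference of −0.97 ± 0.45 (adjusted p = 0.166) and Gabrb1 (117, 92.9 and 69.0 CPM) one of −0.34 ± 0.21 (0.305). Gabrb2 read 129, 149.7 and 157 CPM (−0.01 ± 0.25, 95% interval −0.54 to 0.52, adjusted p = 0.983). Gabrd read 37.6, 55.9 and 101 CPM (0.10 ± 0.62, adjusted p = 0.940).

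In LeuR males Gabra4 and Gabrb2 fell and 0 of the 7 genes rose, against 6.33% of all genes that fell and 3.81% that rose. The median log2 fold change of the members was −0.23, beside 0.05 over all genes. Gabrb2, the beta2 gene, read 60.8, 100.2 and 62.5 CPM in LeuR libraries 19, 20 and 21, all below the lowest Control library. The log2 fold change was −0.98 ± 0.25, a level 0.508 times that of Control (edgeR adjusted p = 0.0287).

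Gabra4 read 12.7, 28.7 and 58.8 CPM in the LeuR males, with LeuR 21 inside the Control range. The log2 fold change was −1.50 ± 0.41 (edgeR adjusted p = 0.0348). Both calls depended on single libraries, and both were lost with only the LeuR and Control libraries in the fit, where 0 of 21015 genes were called (4607 at an unadjusted p under 0.05). The Gabra4 adjusted p was 0.0925, 0.0831 and 0.0747 without Control 1, 3 or 5, 0.0508 without ValR 7, and 0.0995 and 0.0924 without LeuR 19 or 20. The Gabrb2 adjusted p was 0.0787, 0.0697 and 0.0568 without Control 1, 3 or 5, and 0.128 and 0.0674 without LeuR 19 or 21.

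Gabrd read 9.48, 41.9 and 11.1 CPM in LeuR males, where libraries 19 and 21 were below all 4 Control libraries. Its log2 difference was −1.56 ± 0.66 (edgeR adjusted p = 0.149), and it passed without Control 4 (−1.88, adjusted p = 0.0420) or LeuR 20 (−2.56, adjusted p = 0.0467). Gabra2 (71.8, 126 and 147 CPM), Gabra3 (83.6, 86.2 and 125 CPM), Gabra5 (38.3, 56.2 and 49.7 CPM) and Gabrb1 (80.4, 98.8 and 158 CPM) had log2 differences between −0.23 and 0.09 with adjusted p-values of at least 0.684. LeuR 21, the restricted male library with a low cerebellar level, was above every Control library for Gabra2, Gabra3 and Gabrb1, inside the Control range for Gabra4 and Gabra5, and below every Control library for Gabrb2 (62.5 against 133–163 CPM) and Gabrd (11.1 against 14.4–78.7 CPM).

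The marker lists given above, striatal and interneuron genes included, moved with these male results. The part of the lists other than the cerebellar, brainstem and forebrain ones was not tested. A fit with the hindbrain score as covariate called 0 of the 7 members in any of the 3 male comparisons (1, 9 and 0 genes of all tested in IleR, LeuR and ValR). In that fit the estimate for Gabra4 turned to 0.93, 0.43 and 1.41 on the log2 scale in IleR, LeuR and ValR (adjusted p 0.714, 0.787 and 0.664), those for Gabra2 and Gabrb1 in ValR turned to 0.95 and 0.71 (0.681 and 0.687), Gabra3 in ValR was at −0.32 (0.936) and Gabrb2 in LeuR was at −0.80 (0.756). The 95% intervals for Gabra4 were 0.05 to 1.81, −0.26 to 1.12 and 0.37 to 2.44 in IleR, LeuR and ValR. In ValR those for Gabra2 and Gabrb1 were −0.04 to 1.95 and −0.14 to 1.56. Score and diet cannot be told apart in males, which holds for these estimates too.

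**Figure D3:**
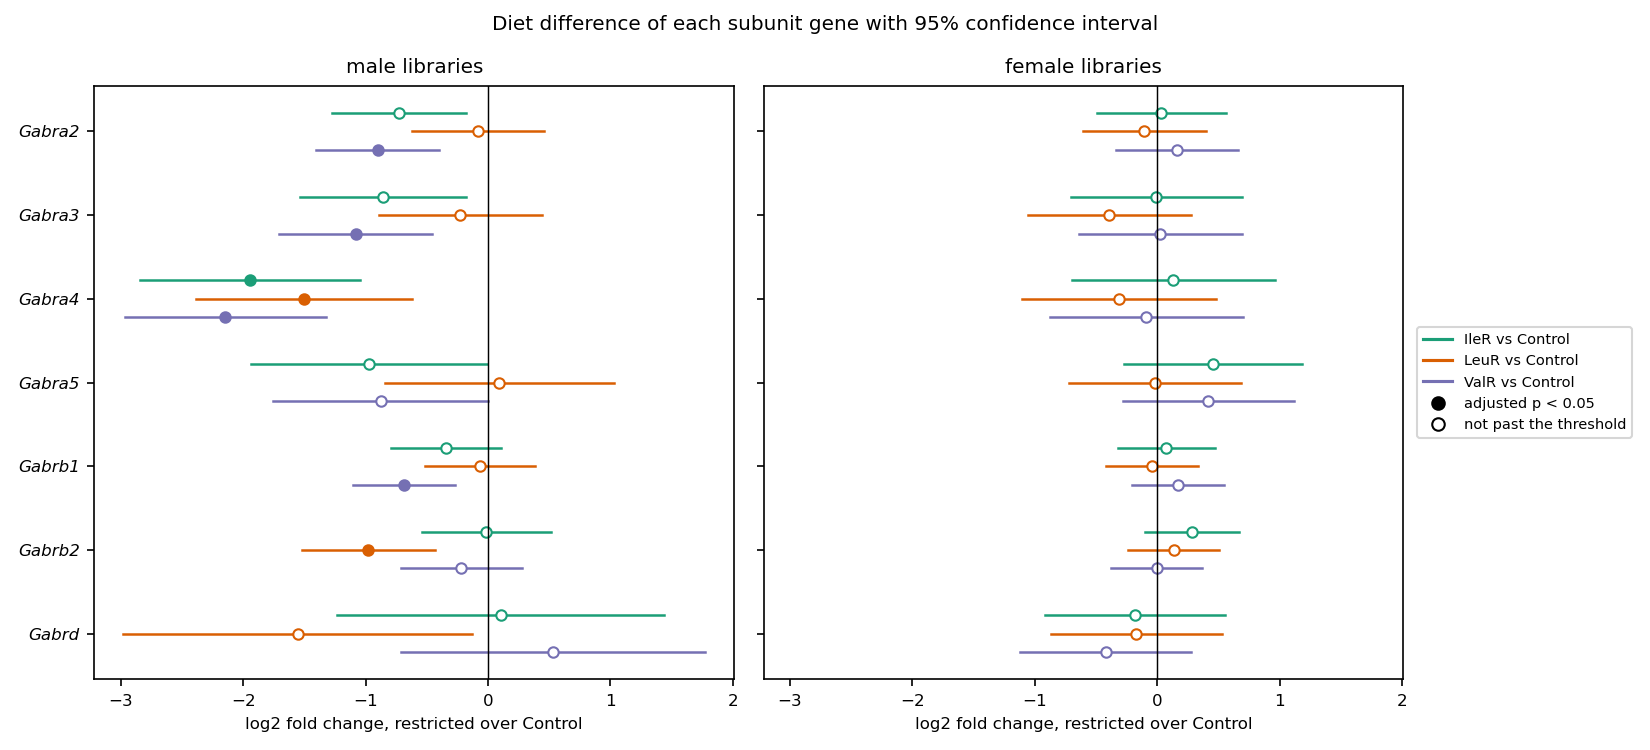
Log2 fold change of each subunit gene in each restricted diet over Control (x axis) with its 95% confidence interval, males left and females right; filled points passed an adjusted p of 0.05. All 7 filled points are male and lie below 0, from −0.69 for Gabrb1 in ValR to −2.15 for Gabra4 in ValR.

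In 1 test over the 4 male diets, edgeR called Gabra4 (adjusted p = 0.00294), Gabra2 (0.0316), Gabra3 (0.0471) and Gabrb2 (0.0499), against 19.3% of all genes tested. Gabra4 kept its call whichever library was left out, whereas the other 3 lost it in 8, 11 and 11 of the 14 fits with a library left out (highest adjusted p 0.0751, 0.102 and 0.174). Gabrb1 (0.0719), Gabra5 (0.157) and Gabrd (0.158) were not called. Gabrb1 passed without IleR 13 (0.0436), LeuR 19 (0.0250) or LeuR 21 (0.0219), and Gabrd passed without LeuR 20 (0.0462).

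Between the restricted diets, edgeR called 0 members. For ValR against LeuR, 6 members had an unadjusted p under 0.05 and 0 passed the adjusted threshold, against 1.73% of all genes higher in ValR and 1.03% lower at the adjusted threshold, and 5294 of 22197 genes at an unadjusted p under 0.05. Gabrd was the largest of them, at 2.09 ± 0.67 on the log2 scale higher in ValR (95% interval 0.64 to 3.54, adjusted p = 0.0896). Gabrb2 was 0.76 ± 0.25 higher in ValR (0.0949), Gabra2 was at −0.82 ± 0.25 (0.0761) and Gabrb1 at −0.62 ± 0.21 (0.0968), and only Gabrb1 had ranges that did not overlap. DESeq2 called these 4 genes, and 2496 of all 22197, and limma voom called 0 of the members and 563 of all genes. In edgeR, leaving out ValR 9 brought Gabra3 (adjusted p 0.0316), Gabrb2 (0.0196) and Gabrd (0.0466) past the threshold, leaving out LeuR 19 brought Gabra2 (0.0378), and leaving out LeuR 20 brought Gabrb2 (0.0427) and Gabrd (0.0348).

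For IleR against LeuR, 4 members had an unadjusted p under 0.05, and 0% of all genes rose and 0% fell after adjustment by edgeR (2512 genes at an unadjusted p under 0.05, 108 called by DESeq2 and 0 by limma voom). Gabrb2 was 0.97 ± 0.27 higher in IleR (95% interval 0.39 to 1.54, adjusted p = 0.356), and its IleR libraries lay above all LeuR libraries. Gabra3 and Gabra5 libraries of IleR lay below all LeuR libraries (log2 differences −0.63 and −1.06). DESeq2 and limma voom called 0 members. For ValR against IleR, 0 members reached even an unadjusted p under 0.05, and DESeq2 and limma voom called 0. Of all genes, 0% rose and 0% fell by edgeR (628 at an unadjusted p under 0.05, 7 called by DESeq2 and 0 by limma voom). The largest member difference there was 0.43 ± 0.63 for Gabrd, and the intervals of the 7 genes ran from −1.06 to 1.78.

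In females, no member passed the test in any diet. EdgeR called 0 of the 7 genes in IleR, LeuR and ValR against Control, 0 had an unadjusted p under 0.05, and DESeq2 and limma voom called 0. Of all genes, 0% were called in each of the 3 comparisons (577, 820 and 777 at an unadjusted p under 0.05, 8, 1 and 0 called by DESeq2 and 1, 0 and 0 by limma voom), and 0.0197% in the test over all 4 diets, where 0 members were called. Group ranges overlapped for every member in every comparison.

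Gabra4 ran from 32.4 through a median of 90.1 to 131 CPM in Control females, and from 42.1 through 111 to 128 in IleR, from 21.8 through 78.5 to 116 in LeuR and from 37.4 through 92.0 to 108 in ValR. The differences from Control were 0.13 ± 0.40, −0.31 ± 0.38 and −0.09 ± 0.38 on the log2 scale. The lowest library of each group was one of the 8 with a high cerebellar level, and the 4 ranges overlapped. The 95% interval for ValR, −0.88 to 0.70, did not reach the −2.15 estimated in ValR males.

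Gabra2 ran from 59.4 through 119.8 to 146 CPM in Control females and between 52.6 and 162 CPM in the 3 restricted groups. The log2 differences of this gene were 0.03, −0.11 and 0.16. Gabrd ran from 24.3 through 84.3 to 132 CPM in Control females, and its medians were 71.6, 56.1 and 63.3 CPM in IleR, LeuR and ValR (log2 differences −0.18, −0.17 and −0.42, SE 0.34 to 0.35). The median Gabrd level was thus highest in Control, within overlapping ranges. Over all members and diets the largest absolute difference was 0.45 on the log2 scale, for Gabra5 in IleR, where the Control median was 44.5 CPM and the IleR median 57.0 CPM. The 95% intervals of the 21 female differences lay between −1.12 and 1.18. Gabrb2 had medians of 127 CPM in Control females and 141, 129 and 109 CPM in IleR, LeuR and ValR, and Gabra3 had medians of 113, 107, 82.3 and 107 CPM.

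Without the 8 female libraries of high cerebellar level, a selection made after the data were seen, edgeR called 0 members and 0 of 21249 genes in each comparison (830, 929 and 648 genes at an unadjusted p under 0.05 in IleR, LeuR and ValR). Gabra5 in IleR then had an unadjusted p of 0.0489 (log2 difference 0.51, adjusted p = 1).

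The sexes were compared directly in 1 fit of all 37 libraries. Gabra4 was the 1 member called for a sex difference in ValR against Control, with a male minus female difference in log2 fold change of −2.07 ± 0.59 (95% interval −3.27 to −0.88, edgeR adjusted p = 0.0405), and 4.25% of all genes passed that test. The ValR interactions of Gabra2 (−1.08, adjusted p = 0.0755), Gabrb1 (−0.87, 0.0650), Gabra5 (−1.29, 0.143) and Gabra3 (−1.11, 0.147) had unadjusted p-values under 0.05 but did not pass, and 5835 of all 22465 genes had such p-values. DESeq2 called Gabra2, Gabra4 and Gabrb1 among 2343 genes in all, and limma voom called 0 members and 29 genes in all.

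The Gabra4 call was lost without any of 15 of the 37 libraries. Its adjusted p was then 0.0752 to 0.0806 without male Control 1, 3 or 5, 0.0645 to 0.0858 without male ValR 7, 9, 10 or 12, 0.0612 to 0.0724 without female Control 27, 29 or 30, 0.0611 to 0.0704 without female ValR 32, 33, 34 or 35, and 0.0506 without female IleR 40. Leaving out female ValR 36 or LeuR 45 brought Gabra2 (0.0377 and 0.0493) and Gabrb1 (0.0297 and 0.0371) past the threshold. With the hindbrain score as covariate the Gabra4 difference was 0.52 (adjusted p = 0.656).

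For IleR, the interaction of Gabra4 was of the same size, −2.07 ± 0.63, with an adjusted p of 0.0942, and edgeR called 0 members (2 at an unadjusted p under 0.05) against 0.0979% of all genes (4280 of 22465 at an unadjusted p under 0.05). DESeq2 called Gabra4 there among 1051 genes in all, limma voom called 0 genes, and edgeR called it without male Control 4 (0.0418) or female IleR 41 (0.0393). For LeuR, edgeR called 0 members (1 at an unadjusted p under 0.05) against 0.00445% of all genes (2911 of 22465 at an unadjusted p under 0.05). DESeq2 called Gabrb2 among 316 genes in all, and limma voom called 0 members and 1 gene in all. The Gabrb2 interaction was −1.09 ± 0.31 (95% interval −1.71 to −0.46, adjusted p = 0.135).

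Members were related to the region markers in different directions. The cerebellar list split the libraries of each sex into separate clusters. Relations were therefore computed within clusters of at least 6 libraries, separated where the largest gap exceeded 0.25 of the range of a list. The plan had been relations over all libraries of each sex, and the split was made after the data were seen. The family held 56 relations, with Benjamini-Hochberg adjustment and two-sided permutation tests. Of these, 20 passed by Pearson's r and 14 by both r and Spearman's rho, and 36 passed by neither. Gabra4 went down as the cerebellar list went up in both female clusters. In the 8 female libraries of high level, Pearson's r was −0.942 (exact permutation p = 9.7e-04, adjusted 0.00542) and Spearman's rho −0.952 (p = 0.00114, adjusted 0.00913), and r was −0.965 without the 2 farthest libraries. In the 15 female libraries of low level, r was −0.768 (permutation p = 0.00112, adjusted 0.00570) and rho −0.732 (p = 0.00247, adjusted 0.0138), with r = −0.804 without the 2 farthest. In those 15 libraries the list averaged only 0.47 to 3.06 log2 CPM, and Gabra6 was at 0–2.46 CPM. Whether such low list levels follow cerebellar content was not tested. The values within diet groups, −0.944 and −0.801, were close to the pooled ones.

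In males Gabra4 went down with the brainstem and spinal cord list over all 14 libraries (r = −0.904, permutation p = 2.0e-05, adjusted 6.9e-04, rho = −0.873, p = 1.2e-04, adjusted 0.00336). The r was −0.875 without the 2 farthest libraries and −0.744 within diet groups, the latter without a test. The 4 Control males and LeuR 21 were lowest on this list. Gabra4 was at 52.0–117 CPM in them and at 12.7–31.1 CPM in the other restricted males. The permutation exchanged libraries across diets, so its p does not separate this relation from the difference between Control and restricted males. Against the cerebellar list, the 9 male libraries of high level gave r = 0.465 for Gabra4 (exact permutation p = 0.208, rho = 0.117, p = 0.776), which did not pass and became −0.283 without the 2 farthest.

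Gabrd had the highest r of the male relations, and it ran the other way in the female libraries of low level. In the 9 male libraries of high cerebellar level, r was 0.991 (exact permutation p = 2.5e-05, adjusted 6.9e-04) and rho 0.950 (p = 3.5e-04, adjusted 0.00459), with 0.987 without the 2 farthest libraries and 0.986 within diet groups. In the 15 female libraries of low level, where the list spans low values only, it ran the other way, with r = −0.783 (permutation p = 6.9e-04, adjusted 0.00429), rho = −0.832 (p = 2.7e-04, adjusted 0.00459), −0.664 without the 2 farthest and −0.759 within diets. In the 8 female libraries of high level r was 0.777 (exact permutation p = 0.0252, adjusted 0.0641), rho 0.833 (p = 0.0154, adjusted 0.0507) and r 0.594 without the 2 farthest, which did not pass after adjustment.

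Gabra3 went down with the cerebellar list in the high clusters of both sexes, with r = −0.839 in the 9 males (exact permutation p = 0.00256, adjusted 0.0103, rho = −0.867, p = 0.00451, adjusted 0.0213, r = −0.937 without the 2 farthest, −0.794 within diets) and r = −0.904 in the 8 females (exact permutation p = 0.00241, adjusted 0.0103, rho = −0.929, p = 0.00223, adjusted 0.0138, r = −0.938 without the 2 farthest, −0.866 within diets). In the same 8 females Gabra2 (r = −0.865), Gabrb1 (r = −0.864) and Gabra5 (r = −0.806) also passed, with adjusted exact permutation p-values of 0.0238, 0.0238 and 0.0375, rho of −0.905, −0.881 and −0.929 (adjusted 0.0213, 0.0312 and 0.0138) and r without the 2 farthest of −0.971, −0.960 and −0.776. Gabrb2 went up with the list in the 9 males (r = 0.856, exact permutation p = 0.00206, adjusted 0.00959, rho = 0.783, p = 0.0172, adjusted 0.0508, 0.647 without the 2 farthest, 0.921 within diets) and did not pass in the females (r = 0.403, exact permutation p = 0.323, rho = 0.405, p = 0.327).

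With the forebrain list, 5 members went up in the 22 female libraries left after the separate LeuR library of low level. Gabra4 had r = 0.812 (permutation p = 7.0e-05, adjusted 9.8e-04), rho = 0.661 (p = 0.00106, adjusted 0.00913), 0.665 without the 2 farthest and 0.810 within diets, and Gabra3 had r = 0.796 (p = 1.8e-04, adjusted 0.00202), rho = 0.706 (p = 4.1e-04, adjusted 0.00459), 0.584 and 0.794. Gabra5, Gabrb1 and Gabra2 passed by r (0.765, 0.761 and 0.729) and not by rho (0.518, 0.230 and 0.409). In males no member passed in either forebrain cluster of 7 libraries. The other relations that passed were those of Gabra5 with the cerebellar list in the 9 males (r = −0.788, by r alone), Gabrb1 with the brainstem list in males (r = −0.657, by r alone), and Gabra4 (r = −0.735) and Gabra2 (r = −0.534) with the brainstem list in 21 females. The Gabrb1 relation pooled all 14 males across diets, and its r within diet groups was −0.395.

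Side by side, the female libraries of low and high cerebellar level had Gabra4 at 60.6–131 CPM (median 108) and 21.8–86.6 CPM (median 39.7). Gabra2 was at 108–162 CPM (median 130) and 52.6–149 CPM (median 78.1), and Gabrb1 at medians of 128 and 85.9 CPM. Gabrd ran the other way, at 24.3–94.4 CPM (median 58.9) and 75.2–132 CPM (median 91.5). Both sets of female libraries held all 4 diets. In the 9 male libraries of high level, 0 of them Control, Gabra4 was at 12.7–31.1 CPM (median 22.2), and 7 of the 8 such female libraries exceeded that range, the highest at 86.6 CPM.

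**Figure D4:**
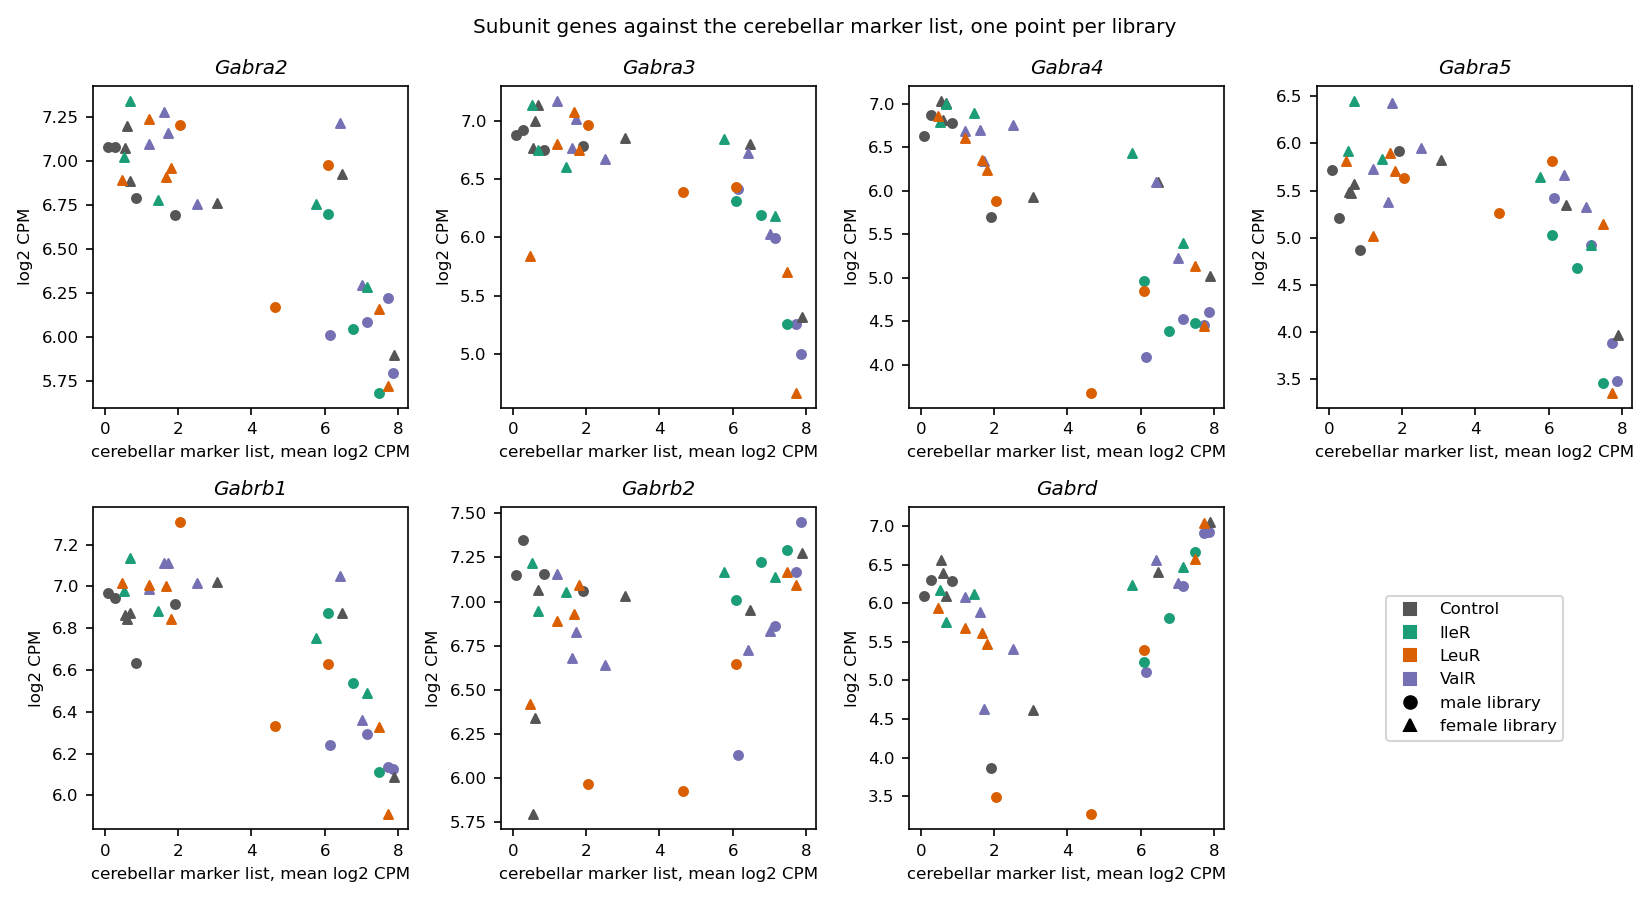
Log2 CPM of each subunit gene (y axis) against the mean log2 CPM of the 11 cerebellar markers (x axis), one point per library, coloured by diet, circles for males and triangles for females. Where the list is high (4.66–7.87 in 9 males, 5.76–7.88 in 8 females), Gabra4 spans 12.7–31.1 CPM in those males and 21.8–86.6 CPM in those females, the latter overlapping the other females, Gabrd spans 9.48–121 CPM in those males and 75.2–132 CPM in those females, and the lowest Gabrd point is male LeuR 19.

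The genes whose levels were most like each member were ranked by the lower of the Pearson correlations over the 14 male and over the 23 female libraries, among 13643 genes whose log2 CPM averaged 1 or more in both sexes. The ranking pools libraries of both cerebellar levels and is a description. Gabra4 was most like Rasgrp1, a Ras activator (r = 0.977 in males and 0.973 in females), the potassium channel subunit gene Kcns2 (0.963 and 0.960) and Cdk5r1, the activator of Cdk5 (0.986 and 0.953). Gabra3 was most like Ppp2r2b (0.953 and 0.952), Gabrb1 like Nexmif (0.966 and 0.958), Gabra2 like Foxo6 (0.946 and 0.939) and Gabrd like Zfp385b (0.926 and 0.942). Gabra5 followed Nsf, which encodes a factor of vesicle fusion, less closely (0.915 and 0.898). Gabrb2 had no gene as close, with Prdm11 first at 0.813 and 0.783.

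Of the 12 other GABA-A receptor subunit genes, 10 were tested in males and 9 in females. In males 1 rose and 1 fell in IleR, 3 rose and 1 fell in LeuR, and 1 rose and 2 fell in ValR, beside the shares of all genes given above (6.63% and 8.68%, 3.81% and 6.33%, 11.1% and 12.4% that rose and fell). In females 0 were called by edgeR (0 at an unadjusted p under 0.05). Gabra6, the alpha6 gene of cerebellar granule cells, read 0 counts in Control males 1 and 3 and 1 count in Control 4 and 5, against 99.5, 175 and 298 CPM in IleR, 31.9, 111 and 0 CPM in LeuR, and 233, 117, 432 and 389 CPM in ValR. Gabra6 passed the filter on low counts only through IleR and ValR, where it is high, so its place among the genes that rose in each diet is a description, and with Control at or under 1 count no fold is given. LeuR 21 was again on the Control side, at 0 CPM. The female libraries of low and high cerebellar level had 0–2.46 and 78.2–380 CPM of Gabra6.

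Gabrg3 fell in ValR males (log2 fold change −1.55, edgeR adjusted p = 0.0202). Gabre (log2 fold change 4.43, edgeR adjusted p = 0.00811) and Gabrq (3.86, 0.0186), which encode the epsilon and theta subunits known from hypothalamus and brainstem, rose in LeuR. Gabre read 0.204, 0.407, 1.73 and 0.330 CPM in Control males 1, 3, 4 and 5 and 7.26, 2.85 and 33.0 CPM in LeuR 19, 20 and 21. Gabrq read 1.43, 0.465, 8.00 and 0.440 CPM in Control and 23.0, 9.25 and 78.8 CPM in LeuR. LeuR 21 was far above the other LeuR libraries for both genes, and these calls were lost with only LeuR and Control in the fit, where 0 genes were called. Gabrg1, Gabrr1 and Gabrr2 were not called in any male comparison with Control.

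Of 28 genes for GABA synthesis, transport and the inhibitory synapse, 27 were tested. In males 2 rose and 5 fell in IleR, 2 rose and 5 fell in LeuR and 3 rose and 5 fell in ValR, with medians of 0.01, −0.02 and −0.07 on the log2 scale, beside 0.04, 0.05 and 0.03 over all genes. Of all genes, 6.63%, 3.81% and 11.1% rose and 8.68%, 6.33% and 12.4% fell, and the 2 of 27 that rose in IleR and the 3 of 27 that rose in ValR are near those shares. In females 0 were called by edgeR in each diet. Shisa7, an auxiliary protein of GABA-A receptors, had the largest change, with log2 fold changes of −2.01 in IleR (edgeR adjusted p = 0.00441) and −2.59 in ValR (3.01e-04), and its ValR change passed the test of a sex difference (interaction −2.45, adjusted p = 0.0318), a call lost with the hindbrain score as covariate, where 0 of 22465 genes passed. Plcl2, related to a protein that aids receptor trafficking, fell by 1.19, 0.99 and 1.14 in IleR, LeuR and ValR. Gabbr2 (a GABA-B receptor subunit) fell by 0.70, 0.71 and 0.57 and Trak1 by 0.48, 0.52 and 0.38. Abat, the enzyme that degrades GABA, rose by 0.57, 0.72 and 0.57. Slc12a2, a chloride importer, rose in IleR (0.90) and ValR (0.88), the vesicular GABA transporter gene Slc32a1 rose in LeuR (0.65) and ValR (0.54), and Insyn1 fell in LeuR (−0.50). The marker lists of brain regions moved with these male results too.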

How the data were processed

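Brain RNA-seq libraries of 14 male and 23 female 3xTg mice were analysed, grouped by diet as labelled. The deposited values are expected counts per gene (RSEM, GRCm38), which the authors estimated from the reads. For its own tests the paper removed outlying libraries by principal components. Whether this accounts for the male libraries without a column is not stated. The aligner is not given in the sources used here. Per the submitters' processing notes, R 3.4.3, edgeR and limma were used, and the deposited tables of fold changes and p-values were not used here. Counts were rounded and tested with edgeR 4.0.16 (R 4.3.3) by the quasi-likelihood test with TMM, sexes apart, and a gene was kept if 1 diet group or more had a count of 1 or higher in all its libraries. Log2 CPM used a prior count of 2, and exon lengths came from GENCODE M21. Alternatives were DESeq2 1.42.0, limma 3.58.1 (voom), other scaling and filters, the hindbrain score as covariate, and leaving out each library. The code was tested on simulated data. Named genes were all 7 members, other subunits measured, up to 10 called genes of the synthesis and synapse list by size of change, and the 3 genes closest to each member by correlation. Members and lists were chosen with earlier results of these data known. Results for some genes of the lists are not reported here, and counts over a list include them.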

Additional observations from a re-analysis of the deposited data

Results flagged for a closer look

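In groups of 4 to 10 libraries, a library was singled out where its gap to the nearest other exceeded Dixon's 95% critical value, which chance alone gives in about 1 of 20 groups, and 42 groups were tested. Gabrd in male Control 4 read 14.4 CPM, against 68.0–78.7 CPM in the other Control males. Gabra3 in female Control 30 read 39.6 CPM, against 109–141 CPM in the others, and Gabrb1 in the same library read 67.9 CPM, against 115–129.7 CPM. Gabrb1 in female ValR 36 read 82.0 CPM, against 127–138 CPM in the others. Gabrb2 in female ValR 35 read 143 CPM, against 99.5–114 CPM. Female Control 30 and ValR 36 were among the 8 female libraries of high cerebellar level, and the part of that level in these values was not tested. The ValR response of Gabra4 passed the test of a difference between the sexes, with a male minus female log2 fold change of −2.07 (edgeR adjusted p = 0.0405), a call lost without any of 15 of the 37 libraries, by limma voom, without a filter and with the hindbrain score as covariate (0.52).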

How the results depend on the processing

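No paired analysis was possible because each library number occurs once and is shared by no groups. With the hindbrain score as covariate, the log2 estimates of Gabra4 turned to 0.93, 0.43 and 1.41 in IleR, LeuR and ValR males, those of Gabra2 and Gabrb1 in ValR males to 0.95 and 0.71, and the ValR interaction of Gabra4 to 0.52. Called members were then 0 in every male comparison with Control, over all male diets and in the ValR interaction. Of all genes, 1, 9 and 0 were called in IleR, LeuR and ValR males, 5 over all male diets and 0 in the ValR interaction. With only the groups compared in the fit, called members were 2 in IleR males, 0 in LeuR males and 3 in the ValR interaction. Of all genes, 3274 of 21330, 0 of 21015 and 1675 of 21049 were called there, and the main fit called 955 of 22465 in the ValR interaction. DESeq2 called 3 in IleR males, 4 in ValR against LeuR, and 1, 1 and 3 in the IleR, LeuR and ValR interactions. In the same order it called 4366, 2496, 1051, 316 and 2343 of all genes. In the ValR interaction limma voom called 0 and the fit without a filter 0 (29 and 587 of all genes). The causes were not tested. With 1 library left out, called members ranged from 1 to 2 in IleR males, 0 to 3 in LeuR, 2 to 5 in ValR, 0 to 3 in ValR against LeuR, 1 to 4 over all male diets, and 0 to 1, 0 to 0 and 0 to 3 in the IleR, LeuR and ValR interactions. In females they stayed at 0 in every alternative run. With 3 or 4 libraries a male group, small differences in single members could not be resolved, and intervals for Gabrd spanned more than 2 log2 units.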
